A study of Mus musculus with 18 samples.

Results

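RNA from the livers of DBA/2J and C57BL/6J mice, both inbred strains, was compared on 6 glass oligonucleotide arrays, out of 18 arrays that also covered brain and kidney. They were chosen by their titles, which call them liver replicates 1 to 6. On every array DBA/2J RNA carried the dye Alexa Fluor 647 and C57BL/6J RNA the dye Alexa Fluor 555, and the dyes were never exchanged, so strain and dye cannot be told apart within liver. Each strain's liver RNA was a pool from 9 mice, and all 6 arrays drew on that pair of pools. The p-values thus rest on repeated hybridisation of single pools and say nothing of variation among mice. The brain and kidney arrays, 6 of each, were built in the same way from pools of 10 mice per strain and serve here as a comparison. No treatment is named in the labels, and the sex, the age and the time of day of collection were not analysed here. The array table held 21765 spots with a value, which were combined into 20218 features, 15095 of them genes with a name.

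The liver's hepatocytes make most of the proteins of blood plasma, oxidise and conjugate drugs and steroids, turn cholesterol into bile acids, store and release glucose and dispose of amino nitrogen as urea. Secreted proteins are folded in the endoplasmic reticulum, whose chaperone genes are induced together when unfolded protein builds up there, and cholesterol synthesis genes are induced together when sterols in the membrane run low. Kupffer cells, sinusoidal endothelium, stellate cells and bile duct cells make up the rest of the organ. In RNA of whole liver, fewer cells of a type and less RNA per cell cannot be told apart.

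The arrays carried the tissue their labels name. Of 21 hepatocyte markers measured, 16 were at least 2-fold brighter on the liver arrays than on both other sets, and the median log2 intensity of the 21 was 12.87 in liver, 8.33 in brain and 8.15 in kidney. The 5 exceptions were Apoa2 (9.42 in liver against 9.52 in brain), Hnf4a (8.46 against 9.46), Hpd (13.42 against 13.06), G6pc (10.95 against 10.72 in kidney) and Pck1 (12.40 against 12.23 in kidney), the last 2 also genes of kidney tubules. Neuron markers had a median of 7.89 in liver against 10.60 in brain, and kidney tubule markers 8.51 against 11.74 in kidney, although the collecting duct water channel Aqp2 was listed at 13.44 in liver. Gene names come from the platform annotation. The 2 spots of 902 genes gave ratios that correlated across genes, which are not independent replicates, with Pearson's r of 0.0333, and 446 of these genes had 2 spots of 1 sign, close to an even split. A value given for a gene below is the value of its spot, every name carries this doubt, and whether the annotation fits each spot was not tested.

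Array 2 stood apart from the other liver arrays. Its ratios correlated with theirs at a mean r of 0.352 across features, against 0.411 for array 5 and 0.501 to 0.540 for the other 4, and many genes with large ratios were nearer 0 on it. It was kept, and values without it are given where they matter. All values below are log2 ratios of DBA/2J over C57BL/6J, so that a positive value stands for more RNA in DBA/2J. The labels give the dye of each strain but not the direction of the deposited ratio, and the direction used here is likely rather than stated. Among genes with known alleles in these strains, Glo1, a gene duplicated in DBA/2J, had a mean of 0.91 ± 0.15 (SD, n = 6), Nnt, which carries a deletion in C57BL/6J, 0.58 ± 0.28, H2-Ea, deleted in the C57BL/6J haplotype, 0.63 ± 0.34, and Hc, whose DBA/2J allele lacks complement C5, -1.08 ± 0.50. These 4 lay on the side that the known alleles give, though the H2-Ea spot was dim, at percentile 9.4 of liver intensities. Gpnmb, truncated in DBA/2J, had -0.23 and lost its call with array 1, 2, 3, 4 or 6 left out, and Alad (0.09), Klrd1 (0.07) and Gabra2 (0.02) did not pass the test.

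Of the 20218 features, 4672 (23.1%) differed from 0 at an adjusted p under 0.05 in limma, 2200 of them higher in DBA/2J (10.9% of all features) and 2472 lower (12.2%). The smallest mean among them was 0.18 on the log2 scale, and the median SD over the 6 arrays was 0.183. The number fell to 2978 when array 3 was left out. A ratio of at least 1.5-fold was also reached by 482 features (2.38%), 159 higher (0.786%) and 323 lower (1.60%). That split depended on the intensity correction, with 313 higher and 363 lower when the arrays were only centred on their medians, the setting called below without the intensity correction. At 2-fold there were 37 higher and 55 lower features. The median over all features was 0.00, and 24.7% of features had 1 sign on all 6 arrays.

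The highest ratios in liver belonged to genes of unlike function. Fgf2, basic fibroblast growth factor, had log2 ratios of 3.39, 0.59, 2.92, 3.40, 2.42 and 1.94 on arrays 1 to 6, all above 0, with array 2 far below the rest. Its mean was 2.44 ± 1.07 (SD, n = 6), a 5.44-fold difference (limma, adjusted p = 0.000184), and 2.81 without array 2. Mt1, a metallothionein that binds zinc and copper, had 2.05, 1.88, 1.74, 1.71, 2.37 and 1.63. The arrays lay close together around a mean of 1.90 ± 0.28, or 3.73-fold (limma, adjusted p = 5.63e-07). Apcs, which encodes serum amyloid P, a pentraxin that mouse liver secretes in the acute phase, had 2.17, 1.23, 1.82, 1.66, 1.83 and 1.93. Its mean was 1.77 ± 0.31, or 3.42-fold (limma, adjusted p = 2.16e-06), and no array came near 0. Acta1, the actin of skeletal muscle, followed with 1.56 ± 0.73, lowest on array 2 at 0.36. The kinase gene Stk32c had 1.41 ± 0.68, with 0.14 on array 2 and 1.67 without it. Rny1, a small RNA bound by the Ro protein, had 1.32 ± 0.22 with every array between 1.12 and 1.66. Msmo1, a methylsterol oxidase of cholesterol synthesis, had 1.29 ± 0.46.

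Other genes among the 12 highest were also high in another tissue or were measured from dim spots. Satl1 had a mean of 1.44 in liver, 0.96 in brain and 2.11 in kidney. The spots of Actl7a (1.32), Rian (1.28), Hspa14 (1.22) and Tmem256 (1.20) lay in the lowest 2% of spot intensities in liver. Their ratios passed the threshold but rest on little signal.

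Some of the lowest ratios varied widely between arrays. Ftl1, ferritin light chain, the iron store of the cell, had -1.95, -0.28, -1.78, -1.60, -3.10 and -3.96, all below 0 but spread over more than 3 log2 units. Its mean was -2.11 ± 1.28 (limma, adjusted p = 0.00145), beside -2.27 in kidney and -1.31 in brain. The related Ftl2-ps had -1.47 ± 0.55 in liver and -2.18 in kidney, and these spots may share signal, since ferritin copies are near-identical. Fpr2, a formyl peptide receptor of phagocytes, had -2.03 ± 1.02 in liver and -1.54 in kidney. Bid, a BH3 protein that starts mitochondrial apoptosis, had -1.69 ± 0.73 in liver, -2.71 in brain and -2.82 in kidney. Each of these 4 genes was therefore low in kidney too.

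Aox3, the aldehyde oxidase of mouse liver, was low in liver without such a value elsewhere. Its 6 arrays gave -1.38, -1.10, -1.90, -1.77, -1.80 and -1.18. All 6 lay more than 1 log2 unit below 0, with a mean of -1.52 ± 0.35, or 2.87-fold lower (limma, adjusted p = 8.03e-06), against 0.02 in brain and -0.04 in kidney. Amy2, pancreatic amylase, had -1.91, -0.79, -1.53, -2.22, -1.50 and -2.10, with array 2 nearest 0. Its mean was -1.68 ± 0.52, or 3.19-fold lower (limma, adjusted p = 2.96e-05). Tmco5 (-1.73), from a dim spot, and the uncharacterised transcripts Bcas3os2 (-1.77) and C730007P19Rik (-1.35) completed the lower end, together with Ogfrl1 (-1.21), Mmp9 (-1.20), the gelatinase of neutrophils, and the natural killer receptor Klrb1b. Tmco5 depended on the normalisation, with -0.58 without the intensity correction, -0.63 with 1 loess curve per array and -0.44 with the intensity left unrestored. The mean of Klrb1b, -1.24, joined spots at -2.35 and -0.14. Mmp9 was also low in brain (-1.57) and kidney (-1.92). So were Tmco5 (-0.44 and -0.64), Bcas3os2 (-0.44 and -0.43) and Ogfrl1 (-0.27 and -1.89). Ogfrl1 differed from the mean of the other tissues by only -0.12, which did not pass the test.

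**Figure D1:**
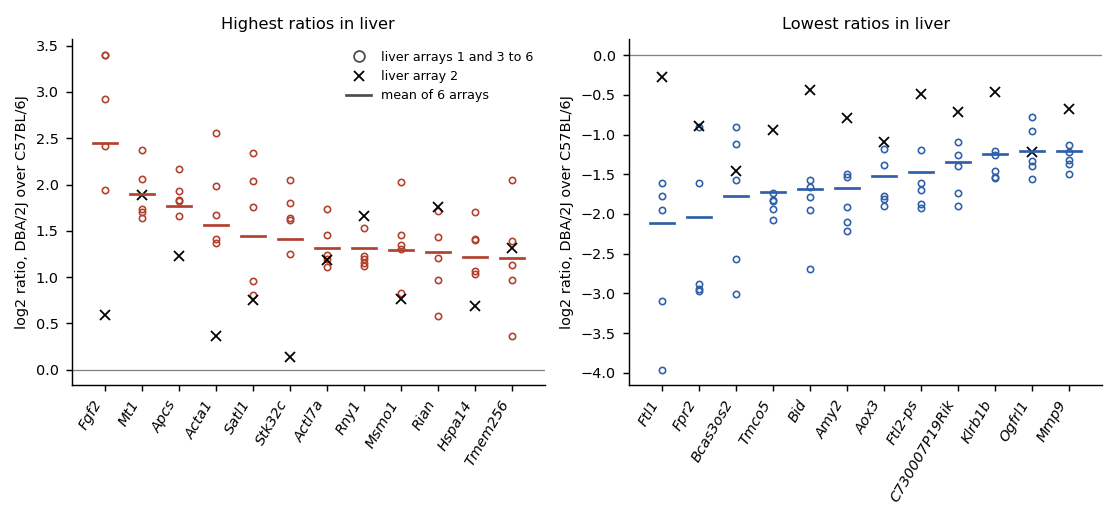
Log2 ratio of DBA/2J over C57BL/6J on each liver array for the 12 highest (left) and the 12 lowest (right) genes past the threshold with 1 sign on all 6 arrays. Circles are arrays 1 and 3 to 6, crosses array 2 and bars the mean of 6 arrays; array 2 was nearest 0 for Fgf2 (0.59), Stk32c (0.14), Ftl1 (-0.28) and Amy2 (-0.79), while the arrays of Mt1 lay between 1.63 and 2.37.

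Genes were grouped into 29 lists of pathways and protein classes and 15 lists of cell type markers. Because some genes stand in several lists, the lists are not independent. The share of all named genes past the threshold was 22.9%, 10.4% higher and 12.4% lower (2.39% also at 1.5-fold). Each list's count is to be read against it. In the 29 lists the share ran from 10.8% for proteasome subunits to 52.5% for drug metabolism enzymes other than cytochrome P450. Nearest to that of all named genes were serine protease inhibitors (23.1%), apolipoproteins (21.2%), amino acid catabolism (26.3%) and methionine and one-carbon metabolism (26.8%). Of the 29, those with medians farthest from 0 were endoplasmic reticulum stress (-0.16), ribosomal proteins (0.16), cholesterol synthesis (0.14), the immediate early list (-0.12), the heat shock list (-0.12), the major urinary protein list (0.12) and oxidative phosphorylation (0.11).

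**Figure D2:**
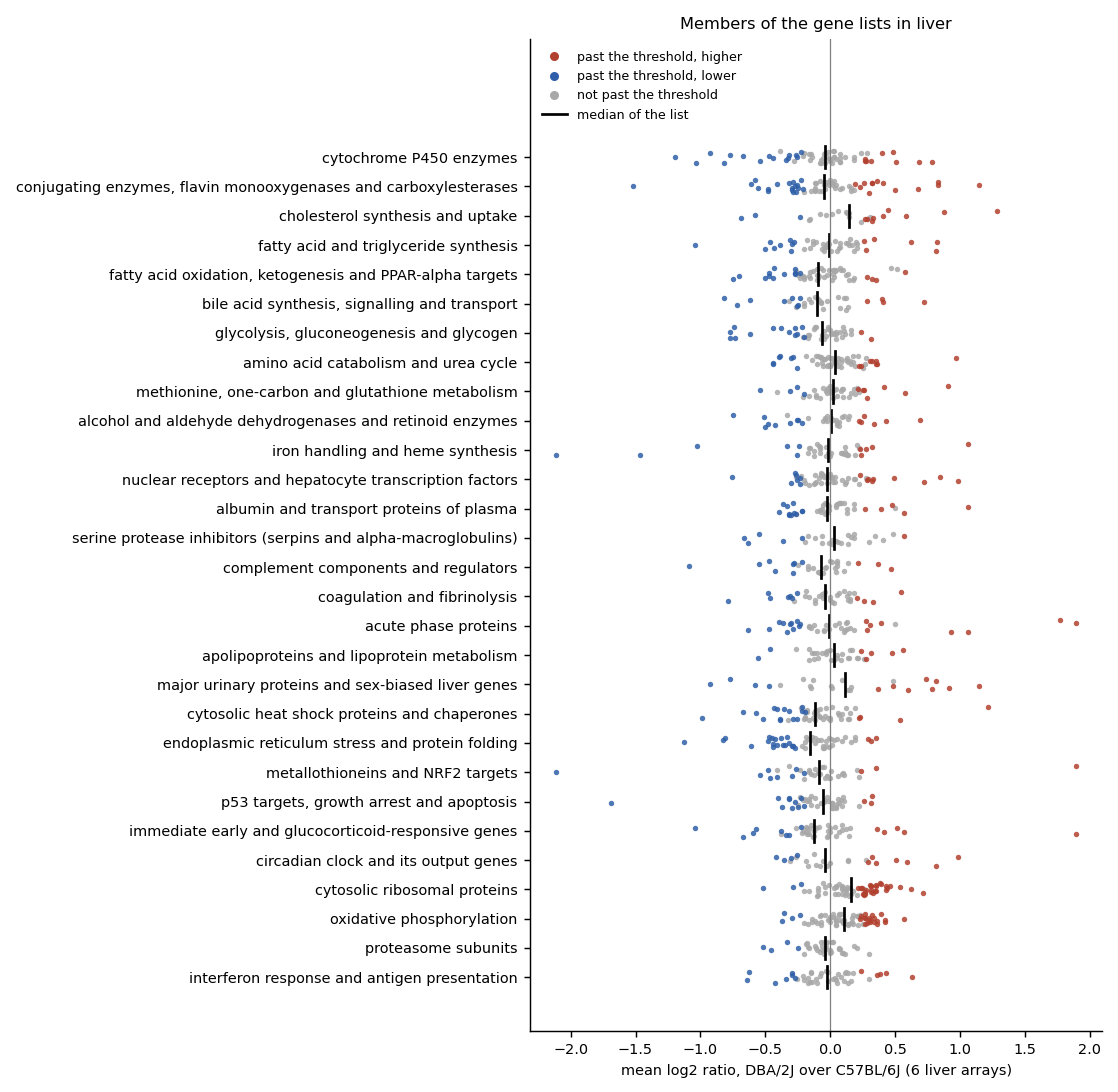
Mean log2 ratio over 6 liver arrays (x axis) for every measured member of 29 gene lists (rows). Red and blue points passed the threshold, grey points did not, and black bars are list medians, which run from -0.16 for the endoplasmic reticulum list to 0.16 for ribosomal proteins.

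Of 50 genes of protein folding in the endoplasmic reticulum, 19 were lower in DBA/2J liver, 3 were higher and 28 did not pass the test. The promoters of several of them hold the endoplasmic reticulum stress element, the site through which ATF6 is known to act. From the lower genes, 4 promoters that hold it are printed here. The sequences are the 250 bases before the gene's start in RefSeq, assembly GRCm38.p6, read 5′ to 3′ on the gene's strand. Capitals mark each match, on either strand, to CCAAT, 9 bases of any kind and CCACG. They lie at chr13:12565633-12565882 (plus strand) for Ero1b, chr10:86705445-86705694 (minus strand) for Hsp90b1, chr8:84846932-84847181 (minus strand) for Calr and chr15:88819396-88819645 (plus strand) for Creld2.
Ero1b: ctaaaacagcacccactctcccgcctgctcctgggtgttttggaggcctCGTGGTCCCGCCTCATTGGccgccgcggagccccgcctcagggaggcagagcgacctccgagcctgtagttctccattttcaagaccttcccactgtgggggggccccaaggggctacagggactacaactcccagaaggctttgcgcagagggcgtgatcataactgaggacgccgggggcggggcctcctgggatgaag
Hsp90b1: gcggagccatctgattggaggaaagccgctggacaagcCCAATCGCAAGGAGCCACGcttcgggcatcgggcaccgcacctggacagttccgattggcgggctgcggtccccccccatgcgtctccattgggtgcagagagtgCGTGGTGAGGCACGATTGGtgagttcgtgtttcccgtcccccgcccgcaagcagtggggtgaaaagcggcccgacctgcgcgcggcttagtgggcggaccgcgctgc
Calr: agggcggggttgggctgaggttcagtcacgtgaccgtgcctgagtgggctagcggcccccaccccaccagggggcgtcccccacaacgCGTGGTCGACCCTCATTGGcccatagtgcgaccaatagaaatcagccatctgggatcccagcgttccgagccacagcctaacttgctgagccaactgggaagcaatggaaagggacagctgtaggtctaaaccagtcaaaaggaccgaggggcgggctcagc
Creld2: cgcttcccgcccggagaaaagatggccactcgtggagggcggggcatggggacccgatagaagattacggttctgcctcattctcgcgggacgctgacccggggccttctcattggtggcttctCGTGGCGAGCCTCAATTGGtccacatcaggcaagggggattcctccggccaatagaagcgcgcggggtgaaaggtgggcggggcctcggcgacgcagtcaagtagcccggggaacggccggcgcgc
The element was found in 37 of 32851 promoters of this length (0.113%). Of the lower genes of the list, 17 had a promoter sequence and 7 of these held it. Those were the 4 above and Canx, Dnajc3 and Syvn1. The other lower genes with a sequence did not hold it, among them Herpud1, Dnajb9, P4hb, Xbp1 and Sel1l. None of the 3 higher genes held it, and 3 of the 25 genes that did not pass the test did, namely Hspa5, Pdia6 and Derl3. A match is a description of the letters, and no binding was measured.

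The median of the 50 genes was -0.16. Ero1b, which oxidises protein disulfide isomerase so that disulfide bonds can form, had -1.70, -0.95, -1.03, -0.91, -1.18 and -0.97. All arrays were below -0.9 and array 1 stood below the rest. The mean was -1.13 ± 0.30, or 2.18-fold lower (limma, adjusted p = 2.78e-05). Herpud1, which helps to remove misfolded proteins, had -0.83 ± 0.16, with every array between -1.02 and -0.53. Dnajb9, a co-chaperone of the endoplasmic reticulum Hsp70, had -0.81 ± 0.45, with array 2 at -0.13 and -0.95 without it. P4hb, protein disulfide isomerase itself, had -0.61 ± 0.26. Creld2 had -0.48 ± 0.16, and Calr, a calcium-binding lectin chaperone, -0.47 ± 0.13.

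Further lower genes, named after their values were seen, were the transcription factor Xbp1 (-0.41), the Hsp90 of this compartment Hsp90b1 (-0.43), the lectin chaperone Canx (-0.33), and the degradation genes Sel1l (-0.44), Derl1 (-0.45), Syvn1 (-0.35) and Edem1 (-0.28). Hspa5, the central Hsp70 of the compartment, had 0.02 ± 0.36 and did not pass the test (limma, adjusted p = 0.932). Its spot reached the top of the scanner's scale on 4 of the 6 liver arrays, so this value does not show whether Hspa5 differed. The stress effectors Ddit3 (-0.29 ± 0.73) and Atf4 (-0.03 ± 0.17) also did not pass the test. The higher genes were Sesn2 (0.32 ± 0.12), Ssr1 (0.36) and Chac1 (0.29), the last from a dim spot. Leaving out any 1 array left 18 to 22 lower and 1 to 3 higher genes. The higher count was 1 without array 3 or array 5, and with arrays only centred on their medians the counts were 14 lower and 5 higher.

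The folding genes also differed from the other tissues. In the contrast of liver with the mean of brain and kidney, in which an effect of the dye that is constant for a spot cancels, 16 of the 50 genes were lower in liver and none was higher. Over all 20218 features that contrast called 1980 (9.79%), with 768 higher (3.80%) and 1212 lower (5.99%). The difference was -1.04 for Ero1b (limma, adjusted p = 2.66e-06), -0.75 for Herpud1, -0.72 for Dnajb9, -0.63 for P4hb and -0.49 for Calr. For Creld2 it was 0.04, since Creld2 was lower in brain as well (-0.80).

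Cholesterol synthesis genes were more often higher. Of 26 measured, 9 were higher and 3 lower, with a median of 0.14, and leaving out any 1 array gave 7 to 10 higher and 2 to 3 lower. Msmo1, which removes methyl groups from sterol precursors, had 1.31, 0.77, 0.82, 1.46, 2.03 and 1.35, all well above 0, or 2.44-fold (limma, adjusted p = 8.34e-05). Fdps, farnesyl diphosphate synthase, had 0.88 ± 0.18 with arrays between 0.56 and 1.05. Sqle, squalene epoxidase, had 0.58 ± 0.24, and Insig1, which holds the sterol sensor complex in the endoplasmic reticulum, 0.44 ± 0.19. Pmvk (0.41), Tm7sf2 (0.33), Hsd17b7 (0.32), Idi1 (0.28) and Lss (0.27), all enzymes of the pathway, were higher by less.

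3 members went the other way. Fdft1, squalene synthase, the enzyme between Fdps and Sqle, was lower on every array, from -0.85 to -0.20, with a mean of -0.58 ± 0.22 (limma, adjusted p = 0.000644). Insig2 had -0.69 ± 0.55, with 5 arrays between -1.04 and -0.74, array 2 at 0.42 and a mean of -0.91 without it. The sterol exporter gene Abcg5 had -0.23. The regulator Srebf2 (-0.08 ± 0.14) did not pass the test. Against the other tissues 6 of the 26 genes were higher in liver and 2 lower, with differences of 1.36 for Msmo1, 0.61 for Fdps, 0.52 for Sqle and -0.68 for Fdft1. The sterol regulatory core TCACNCCAC, searched on both strands of the same windows, was found in 346 of 32851 promoters (1.05%) and in 0 of 7 higher, 0 of 2 lower and 0 of 12 other genes of the list with a sequence. No match says only that these letters are absent from the window.

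**Figure D3:**
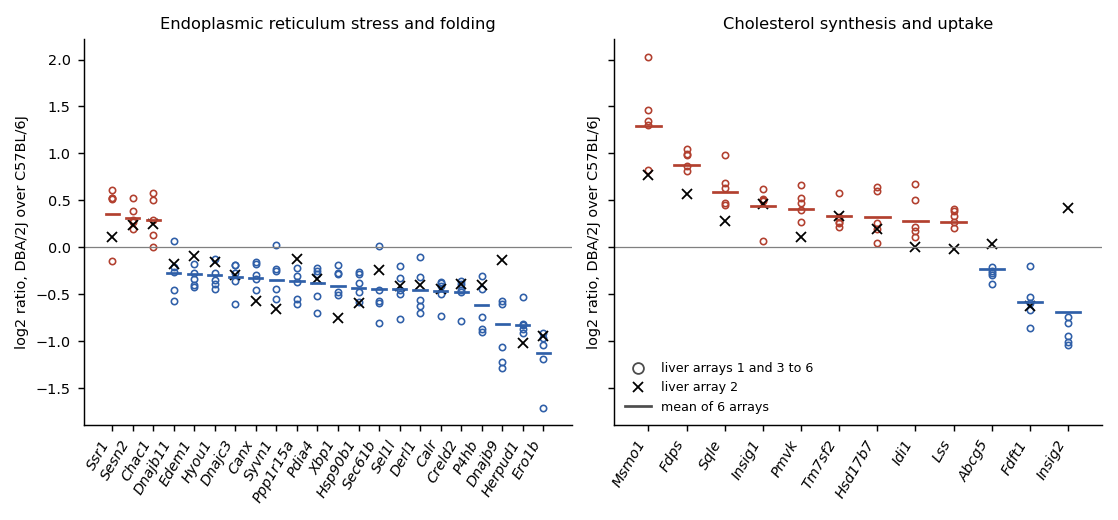
Log2 ratio of DBA/2J over C57BL/6J on each liver array for the members past the threshold in the endoplasmic reticulum list (left, 3 higher and 19 lower) and the cholesterol list (right, 9 higher and 3 lower). Circles are arrays 1 and 3 to 6, crosses array 2 and bars the mean of 6 arrays; array 2 lay above 0 for Insig2 (0.42) while its mean was -0.69.

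Cytosolic heat shock proteins and chaperones were lower for 15 of 54 genes and higher for 4, with a median of -0.12. The lens and muscle chaperone Cryab had -0.99 ± 0.24, and was also low in kidney (-1.18) and brain (-0.45). Hspb1, a small heat shock protein, had -0.67 ± 0.38 and differed from the other tissues by -0.68. Hsph1, a nucleotide exchange factor for Hsp70, had -0.57 ± 0.21, and Dnaja1, an Hsp70 co-chaperone, -0.52 ± 0.17, which became -0.26 without the intensity correction and lost its call. The stress-inducible Hspa1a had -0.35 ± 0.23. Higher were Bag3, a co-chaperone induced by heat shock (0.53 ± 0.29), and Hspa14 (dim, above). Leaving out array 1 or 4 brought the lower count to 10 and leaving out array 6 to 9, and without array 3 or 4 the higher count was 2. Against brain and kidney 2 genes were higher and 5 lower.

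Among metallothioneins and targets of the oxidative stress factor NRF2, 3 of 37 were higher and 8 lower, and the list did not move as one. Beside Mt1 (1.90) the higher genes were Mt3 (0.35), the brain metallothionein, and Ugdh (0.24). Gclm, the regulatory subunit of glutamate-cysteine ligase, had -0.54 ± 0.07, with all arrays between -0.66 and -0.46. Its partner Gclc had -0.20. Ephx1, microsomal epoxide hydrolase (-0.48 ± 0.15), the malic enzyme gene Me1 (-0.46 ± 0.21) and Gstp1 (-0.41 ± 0.28) were lower. Hmox1, heme oxygenase (-0.12 ± 0.16), and the factor Nfe2l2 (-0.08 ± 0.21) did not pass the test.

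Of 44 genes of the p53 and apoptosis list, 10 were lower and 3 higher. Bid was the largest, and next came the kinase gene Plk2 (-0.40 ± 0.30), the stress gene Sesn1 (-0.37 ± 0.25) and the apoptosome gene Apaf1 (-0.32 ± 0.12). Without array 1, 4 or 6 the lower genes numbered 6, and 5 without array 3. Against the other tissues 2 genes were higher and 1 lower, and Bid was among the higher (1.08), since its means in brain and kidney lay below that in liver. Immediate early and glucocorticoid-responsive genes were higher for 5 of 44 and lower for 8. Lower were Lpin1, the phosphatidate phosphatase lipin (-1.04 ± 0.36), Tsc22d3, a classical glucocorticoid target (-0.60 ± 0.30), and the phosphatase gene Dusp1 (-0.57 ± 0.41, with array 2 at 0.21). Cish, an inhibitor of cytokine signalling, was higher (0.57 ± 0.30). In the list 4 genes were lower without array 1, and 5 without array 4 or with the intensity left unrestored.

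Clock-controlled genes were higher for 7 of 24 and lower for 4. Dbp, a transcription factor of the clock's output, had 0.99 ± 0.45 with every array between 0.65 and 1.85. Upp2, a liver uridine phosphorylase, had 0.82 ± 0.15, Noct, a rhythmic phosphatase, 0.59 ± 0.15, and the clock gene Per3 0.51 ± 0.20. Per3 had nearly the same mean in brain (0.45) and kidney (0.54), but its spot was dim, at percentile 4.3 of liver intensities. Dbp was higher in kidney too (0.69), while Upp2 differed from the mean of the other tissues by 0.70. Lower were Avpr1a, a vasopressin receptor (-0.42 ± 0.32), and Wee1 (-0.35 ± 0.28), a cell cycle kinase. Wee1 lost its call without the intensity correction (-0.23), with 1 loess curve (-0.29) and without array 1, 3, 4 or 6. In the list 1 gene was lower without array 1 or 6, 2 without array 3 and 8 with 1 loess curve.

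Lipid synthesis genes moved in both directions, with 6 of 44 higher and 9 lower. Gpam, which starts triglyceride synthesis, had 0.82 ± 0.38, Elovl5, an elongase of polyunsaturated fatty acids, 0.82 ± 0.17, and Acly, which makes acetyl-CoA from citrate, 0.62 ± 0.26. Lower were Lpin1, Scd1, stearoyl-CoA desaturase (-0.50 ± 0.25), and Me1. The fatty acid synthase gene Fasn had -0.39 ± 0.18, also lower. Without array 4 the higher count was 4. Differences from the other tissues were 0.96 for Gpam, 0.61 for Elovl5, 0.57 for Acly, -0.80 for Lpin1 and -0.46 for Scd1.

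Genes of fatty acid oxidation and targets of PPAR-alpha were lower for 12 of 54 and higher for 4, with a median of -0.09. Crot, which moves medium-chain acyl groups to carnitine in peroxisomes, had -0.75 ± 0.37, lowest on array 5 at -1.47. Slc27a2, a very long-chain acyl-CoA synthetase, had -0.70 ± 0.29, but its mean was -0.08 without the intensity correction and the call was lost. Aldh3a2 (-0.51 ± 0.18), Acot1 (-0.47 ± 0.19) and Ehhadh (-0.47 ± 0.24), all linked to peroxisomal or omega oxidation, were also lower. Fabp2, a fatty acid binding protein, was higher (0.58 ± 0.14). The receptor gene Ppara had 0.02 ± 0.11 and did not pass the test. The lower count was 8 without array 3 and 7 without the intensity correction.

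Among 31 genes of bile acid synthesis and transport, 4 were higher and 8 lower. Baat, which conjugates bile acids to taurine and glycine, had -0.72 ± 0.09, with arrays between -0.80 and -0.57 and a difference from the other tissues of -0.79. Its spot was bright in every tissue, at percentile 97.0 of intensities in liver, 92.9 in brain and 98.0 in kidney. What it binds there was not tested. Cyp39a1, an oxysterol hydroxylase, had -0.82 ± 0.25 beside -0.49 in brain and -0.48 in kidney. The uptake transporter gene Slco1a4 had -0.62 ± 0.19. Nr0b2, the small heterodimer partner that represses bile acid synthesis, had 0.72 ± 0.26. Cyp7a1, the rate-limiting enzyme of bile acid synthesis, had -0.07 ± 0.10 and did not pass the test (limma, adjusted p = 0.456). With array 3, 4 or 6 left out, 5 genes were lower.

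Glucose and glycogen genes were lower for 13 of 43 and higher for 2, with a median of -0.06. Pdha1, a subunit of pyruvate dehydrogenase, had -0.78 ± 0.41, and G6pc, which releases glucose from glucose-6-phosphate, -0.77 ± 0.33, lowest on array 2 at -1.42. Pfkl, liver phosphofructokinase, had -0.74 ± 0.23 with positive means in brain and kidney, so that the difference was -0.999 (limma, adjusted p = 9.13e-07). Pygl, liver glycogen phosphorylase, had -0.62 ± 0.15, and Gbe1, the glycogen branching enzyme, -0.44 ± 0.25. Tpi1, triose phosphate isomerase, had -0.73 ± 0.28 beside -0.56 in brain and -0.84 in kidney. Pck1, which drives gluconeogenesis, had -0.16 ± 0.12 and did not pass the test. Against the other tissues 8 genes of the list were lower and none was higher. The 2 higher genes were lost without array 1 or array 6 and with the intensity left unrestored, and 9 lower genes were left without array 6.

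Cytochrome P450 genes were lower for 15 of 59 and higher for 9. Cyp3a13, a drug and steroid oxidase, had -1.20 ± 0.42 with arrays between -1.69 and -0.76, against 0.13 in brain and 0.01 in kidney. Cyp4a10, a fatty acid omega-hydroxylase controlled by PPAR-alpha, had -1.03 ± 0.24 and was also low in kidney (-0.90). Cyp2b9, a female-biased enzyme, had -0.77 ± 0.37, with 5 arrays at or below -0.72 and array 2 at -0.04.

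Cyp3a44 (-0.92 ± 0.43) and Cyp1a2 (-0.67 ± 0.10) were lower in the test, but their means shrank to -0.21 and -0.22 without the intensity correction and both calls were lost. Higher were Cyp4a12a, a male-biased omega-hydroxylase (0.79 ± 0.17, and 1.83 in kidney), and Cyp2a5, which oxidises coumarin and nicotine (0.68 ± 0.23, and 1.51 in kidney). Cyp2e1, one of the most abundant P450 transcripts of liver, had -0.02 ± 0.22. Members of the Cyp2a, Cyp2b, Cyp2c, Cyp3a and Cyp4a subfamilies are close copies, and a spot may bind several of them. With array 3 left out, 10 genes of the list were lower.

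Other enzymes of drug metabolism were higher for 13 of 59 and lower for 18. Fmo2, a flavin monooxygenase, had 1.15 ± 0.33, with its 2 spots at 1.46 and 0.84. Gstt2 (0.83 ± 0.36) and Mgst3 (0.83 ± 0.14), both glutathione transferases, were higher, and Mgst3 was higher in kidney too (0.93). Tpmt, which methylates thiopurine drugs, had 0.68 ± 0.30. Lower were Aox3, Ugt2b5, a glucuronosyltransferase (-0.61 ± 0.12), Ephx1, which was low in kidney too (-0.67), and Gstp1. Gstp1 had positive means in brain (0.29) and kidney (0.39), which gave a difference of -0.75. The lower count was 11 to 12 without array 1, 3, 4 or 6, and 10 without the intensity correction.

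Alcohol, aldehyde and retinoid enzymes were higher for 6 of 33 and lower for 9. Aldh3a1 had a mean of -0.75 with all 6 arrays below 0 and array 5 lowest (-2.05). Without array 5 its mean was -0.49 and the call was kept, but the call was lost with an intensity trend. It was low in kidney too (-0.60). Aldh9a1 (-0.51 ± 0.13) had -0.73 in brain and -0.57 in kidney. Lrat, which esterifies retinol and marks stellate cells, had -0.48 ± 0.21, and -0.81 without the intensity correction. Hsd17b6, a retinol and steroid dehydrogenase, had 0.70 ± 0.12, and Aldh1a1, which makes retinoic acid, 0.43 ± 0.28, with a much higher mean in kidney (1.94) and no call without the intensity correction. The higher count was 2 with 1 loess curve per array, 4 without the intensity correction or without array 1, 3 or 6 and 3 without array 4, and the lower count 6 without array 6.

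Amino acid catabolism and the urea cycle gave 8 higher and 7 lower genes of 57. Gadl1, an acidic amino acid decarboxylase, had closely spaced arrays, between 0.90 and 1.08, with a mean of 0.97 ± 0.07 and a difference of 1.06 from the other tissues (limma, adjusted p = 9.54e-08). Members of the urea cycle did not move together. Cps1, which fixes ammonia, had -0.44 ± 0.12, and the ornithine carrier gene Slc25a15 -0.38 ± 0.11, or -0.23 with no call without the intensity correction. Ass1 (0.35 ± 0.07) and Arg1 (0.35 ± 0.21), later steps of the cycle, were higher, with 0.59 and 0.64 without that correction.

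Lower too were Tdo2 (-0.44 ± 0.07), which breaks down tryptophan, and Cdo1 (-0.40 ± 0.18), which oxidises cysteine, and Got1, the cytosolic aspartate aminotransferase, was higher (0.36 ± 0.14). The higher count was 5 without array 1, 3 or 6 and 12 without the intensity correction. Of 41 genes of methionine, one-carbon and glutathione metabolism, 7 were higher and 4 lower. Beside Glo1 and Nnt, Bhmt, which remethylates homocysteine, had 0.42 ± 0.19, and Sardh, sarcosine dehydrogenase, -0.31 ± 0.19, which lost its call without the intensity correction (-0.16), with 1 loess curve (-0.23) and without array 6. The higher count was 4 without array 1 or 3, and the lower count 2 without array 3 or 4 or with the intensity left unrestored and 1 without array 6.

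Iron genes were higher for 5 of 37 and lower for 6. Hamp, which encodes hepcidin, the liver hormone that blocks iron release, had 1.75, 1.48, 0.81, 0.13, 1.04 and 1.15, all above 0 but widely spread. Its mean was 1.06 ± 0.56, or 2.09-fold (limma, adjusted p = 0.000958), with a difference of 1.08 from the other tissues. Bmp6, a ligand that induces hepcidin, had -1.03 ± 0.20 beside -1.31 in kidney. Slc40a1, the iron exporter ferroportin that hepcidin removes, had 0.32 ± 0.16. The split turned to 7 higher and 3 lower without the intensity correction and to 2 and 4 with the intensity left unrestored. The higher count was also 2 without array 3, 4 or 6 and 3 without array 1 or 5, and the lower count 3 without array 3 or 6 and 4 without array 1 or 5.

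Of 41 transport proteins of plasma, 5 were higher and 11 lower with a median of -0.03, but the split turned to 8 higher and 1 lower without the intensity correction and to 7 and 7 with 1 loess curve per array, so no direction is given for the list. Serpina6, the corticosteroid carrier, had 0.57 ± 0.29, Apoh 0.47 ± 0.21 and Orm1, an acute phase glycoprotein, 0.40 ± 0.24. Shbg, the sex steroid carrier (-0.36 ± 0.09), and Ahsg, fetuin-A (-0.39 ± 0.14), were lower in the test, but had -0.23 and -0.17 without the intensity correction, with no call. Alb, albumin, had 0.50 ± 0.79 and did not pass the test, and its spot was at the top of the scanner's scale on 4 of the 6 arrays.

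Serine protease inhibitors were lower for 5 of 26 and higher for 1. Serpina12, the adipokine vaspin, had -0.67 ± 0.39, Serpina3n, an acute phase antichymotrypsin, -0.63 ± 0.41, and Mug1, murinoglobulin, -0.55 ± 0.22 with a positive mean in brain and a difference of -0.78. Without the intensity correction 5 of these genes were higher and 6 lower, and with 1 loess curve 5 and 5. The Mug1 spot was at percentile 99.6 of intensities in brain, beside 97.9 in liver and 80.5 in kidney. Serpina1c, an alpha-1-antitrypsin, had 0.41 ± 0.51, did not pass the test and was at the top of the scale on 5 arrays. Complement genes were lower for 8 of 30 and higher for 3. Hc, complement C5, had -1.08 ± 0.50 with array 2 at -0.15 and -1.27 without it.

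C8b, of the membrane attack complex, had -0.55 ± 0.33, and Cfb, factor B of the alternative pathway, -0.47 ± 0.14. C6 (0.37 ± 0.19) and C9 (0.47 ± 0.46), also of the membrane attack complex, were higher, but the call of C9 was lost without array 1, 3, 4, 5 or 6, with means of 0.38 to 0.48. The higher count of the complement list was 1 without array 1, 4, 5 or 6, and the lower count 5 without array 3 or 4. Against the other tissues 8 complement genes were lower and 1 higher.

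Coagulation genes were higher for 4 of 35 and lower for 7. Ggcx, the vitamin K dependent carboxylase that activates clotting factors, had -0.79 ± 0.45. Thbd, thrombomodulin, an anticoagulant receptor of endothelium, had -0.46 ± 0.25, and F12, which starts contact activation, -0.33 ± 0.20, with no call without array 3. Tfpi2, a Kunitz inhibitor, had 0.54 ± 0.36 with a kidney mean of -0.97, and Klkb1, plasma prekallikrein, 0.33 ± 0.18. Leaving out array 1, 3, 4, 5 or 6, or leaving the intensity unrestored, left 2 higher genes.

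Acute phase genes were higher for 8 of 39 and lower for 11, and without the intensity correction for 10 and 3. The large increases of Mt1, Apcs and Hamp stood beside Serpina3n, Cfb and Hp, haptoglobin, which were lower. Hp had -0.33 ± 0.23 in the test and -0.08 without the intensity correction, where it lost its call. Il6ra, the interleukin-6 receptor, had 0.93 ± 0.42 from a dim spot. The lower count was 7 without array 1 or array 3.

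Apolipoprotein and lipoprotein genes were higher for 5 of 33 and lower for 2. Apob, the structural protein of very low density lipoprotein, had -0.47 ± 0.19 and a difference of -0.53, whereas Apoc2, the activator of lipoprotein lipase, had 0.56 ± 0.39 and a difference of 0.73. Abcg1, a cholesterol exporter, had -0.56 ± 0.45, with array 2 at 0.30. Without the intensity correction 9 were higher and 4 lower, and the higher count was 3 without array 1, 3 or 4.

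Major urinary proteins and other sex-biased genes of liver were higher for 8 of 24 and lower for 4, with a median of 0.12. The genes known as male-biased, Cyp4a12a, Mup2 (0.82 ± 0.63), Mup3 (0.92 ± 0.86) and Mup5 (0.60 ± 0.55), were higher, as was Nudt7, a coenzyme A diphosphatase (0.74 ± 0.29). Known female-biased genes stood on both sides, with Cyp3a44 and Cyp2b9 lower and Fmo2 higher. The spots of Mup2, Mup3 and Mup5 reached the top of the scale on some liver arrays, and the genes are close copies whose spots cannot separate them. Mup5 was 1.70 on array 1 and its mean was 0.38 without it, 1.03 without the intensity correction and 0.34 with the intensity left unrestored, and the call of Mup3 was lost without array 3 (0.82). In kidney the means of these 3 genes were 1.04, 0.87 and 1.10, so none of them differed between liver and the other tissues past the threshold.

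Regulators of liver genes were higher for 9 of 48 and lower for 7. Nr2f2, the orphan receptor COUP-TFII, had -0.75 ± 0.19 beside -1.04 in kidney. Hnf4a, a master factor of hepatocytes, had -0.25 from spots at -0.66 and 0.15. Dbp and Nr0b2 were higher, as were Ghr, the growth hormone receptor (0.85 ± 0.38), Foxa3 (0.49 ± 0.27) and Cebpa (0.33 ± 0.20). The spots of Ghr and Foxa3 were among the dimmest 2%, and without the intensity correction their means were 1.65 and 1.08. The call of Cebpa was lost without that correction (0.21), and that of Hnf4a without array 4 or 6 and with the intensity left unrestored. The lower count was 4 without array 3, without the intensity correction or with the intensity left unrestored, 3 without array 1 and 2 without array 4 or 6, and the higher count was 6 without array 1 or array 4.

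Ribosomal protein genes were the list with the most higher members, 28 of 63, and had 3 lower ones, with a median of 0.16. Rplp1, of the ribosomal stalk, had 0.71 ± 0.31, Rps15 0.63 ± 0.30, Rps25 0.54 ± 0.28 and Rpl19 0.46 ± 0.20. Rpl24 was the main exception with -0.52 ± 0.25. The median of the list was 0.37 in brain and -0.095 in kidney, and against brain and kidney together 3 genes were higher and 2 lower. Without array 1 there were 18 higher, and without the intensity correction 30 higher and 1 lower.

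Of 69 oxidative phosphorylation genes, 20 were higher and 4 lower, with a median of 0.11 in liver, 0.20 in brain and -0.050 in kidney, and 3 higher and 4 lower against the other tissues. Uqcrq (0.57 ± 0.54), Atp5e (0.43 ± 0.16), Uqcr10 (0.42 ± 0.19) and Cox5a (0.39 ± 0.15) were higher. Uqcrq was 1.57 on array 4 and 0.37 on average without it, and its call was lost without array 3 or 6 and with an intensity trend. Subunits of succinate dehydrogenase were divided, with Sdhb at 0.36 ± 0.06 and Sdhc at -0.37 ± 0.16. Leaving out array 1 left 11 higher genes, and array 3 or 4 left 13, each with 2 lower. Proteasome subunits gave 4 lower and 0 higher of 37 in limma, with Psmd13 at -0.52 ± 0.19 and Psma1 at -0.45 ± 0.15. Without array 2 they gave 6 lower and 3 higher, and with estimated array weights 7 lower and 3 higher.

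Antigen presentation genes were higher for 5 of 42 and lower for 7. The classical class I gene H2-K1 had -0.64 ± 0.31 and the liver-secreted class I gene H2-Q10 -0.63 ± 0.20, against 0.45 in brain and -0.12 in kidney for H2-Q10. B2m, the light chain that both need, had 0.43 ± 0.31. The H2-Q10 spot was bright in every tissue, at percentile 99.2 of intensities in liver, 96.9 in brain and 97.7 in kidney. Ifit2, an interferon-induced gene, had -0.43 ± 0.19, but -0.27 without the intensity correction and -0.24 with 1 loess curve, where its call was lost. Ifi27l2a, another interferon-induced gene, had 0.38 ± 0.23.

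Most markers of the cell types of liver did not pass the threshold, but neither did most named genes (22.9% passed). The share past it was above 22.9% for hepatocyte, periportal, endothelium, neutrophil and red cell markers. It was below 22.9% for pericentral, Kupffer cell, stellate cell, cholangiocyte and lymphocyte markers. Of 21 hepatocyte markers 6 were lower and 0 higher in limma, and without the intensity correction 5 were lower and 5 higher. Periportal markers gave 4 higher and 3 lower of 14 and pericentral markers 0 higher and 3 lower of 18. Leaving out any 1 array gave 2 to 5 higher and 2 to 5 lower periportal markers, so that split is not firm. Both Cyp1a2 and Glul, the glutamine synthetase around the central vein (-0.29 ± 0.17), lost their calls without the intensity correction. Sinusoidal and vascular endothelium had 2 higher and 4 lower of 16 and a median of -0.13, with Gpr182 (-0.73 ± 0.21) and Mrc1 (-0.58 ± 0.21), a scavenger receptor, lower and Dnase1l3 (0.48 ± 0.19) higher. Gpr182 and Mrc1 had -0.55 and -0.44 in brain and -1.02 and -1.09 in kidney. Dnase1l3 was higher in kidney too (0.75).

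At least 2-fold brighter in liver than in both other tissues were 0 of 21 Kupffer cell and 0 of 19 stellate cell markers. For endothelium it was 1 of 16 and for cholangiocytes 1 of 10, so these lists say little of those cells in liver. Kupffer cell markers gave 1 higher and 2 lower of 21. Of these, Lyz1, a lysozyme, had -0.37 ± 0.13, and its call was lost with the intensity left unrestored (-0.28). The other lysozyme gene of the list, Lyz2, had -0.155 ± 0.136 and did not pass the test. With 1 loess curve the Kupffer list gave 2 higher and 5 lower. Stellate cell markers gave 1 higher and 3 lower of 19, cholangiocyte markers 1 and 1 of 10, and lymphocyte markers 1 and 3 of 22, with the B cell receptor gene Cd79a at -0.40 ± 0.18. Neutrophil markers gave 1 higher and 3 lower of 13 and red cell markers 2 and 2 of 12, with the carbonic anhydrase gene Car2 lower (-0.67 ± 0.25) and Tspo2 higher (0.54 ± 0.17). Adipocyte markers gave 1 and 2 of 9 (4 and 3 without the intensity correction), neuron markers 1 and 0 of 11, and kidney tubule markers 0 and 2 of 10.

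Exocrine pancreas lies next to the liver. Of 16 pancreas markers 5 were lower and 0 higher in limma, with a median of -0.12 against 0.00 for all features, and 3 were lower without array 1 or array 4. Prss2, a trypsinogen, had -0.93 ± 0.48 with array 2 at -0.06 and -1.10 without it, Cpb1, a carboxypeptidase, -0.59 ± 0.45, Reg1 -0.54 ± 0.47 and Clps, colipase, -0.37 ± 0.13. The call of Reg1 was lost without array 1, 3 or 4, and Clps had -0.28 in brain and -0.50 in kidney and no call without the intensity correction (-0.23). Beside Amy2, 5 of the 16 markers were at least 2-fold brighter in liver than in both other tissues, among them Cela3b (log2 intensity 14.03), Prss1 (12.12) and Clps (10.88), while Prss2 was at 8.90 in liver, 9.12 in brain and 8.94 in kidney. The ratios of the bright markers Cela3b (-0.065 ± 0.30), Prss1 (0.19 ± 0.11) and Ctrb1 (-0.095 ± 0.29) did not pass the test. The part of pancreatic tissue in the low ratio of Amy2 was not tested.

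Skeletal muscle markers gave 4 higher and 2 lower of 17. Beside Acta1, Ckm, muscle creatine kinase (0.60 ± 0.39), Tnnt3 (0.39 ± 0.15) and Tnnc2 (0.32 ± 0.32) were higher, the last without a call when single arrays were left out, and Actn3 (-0.37 ± 0.08) and Myh1 (-0.36 ± 0.20), from dimmer spots, were lower, with -0.67 and -0.54 without the intensity correction. The part of muscle in the high ratio of Acta1 was not tested.

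**Figure D4:**
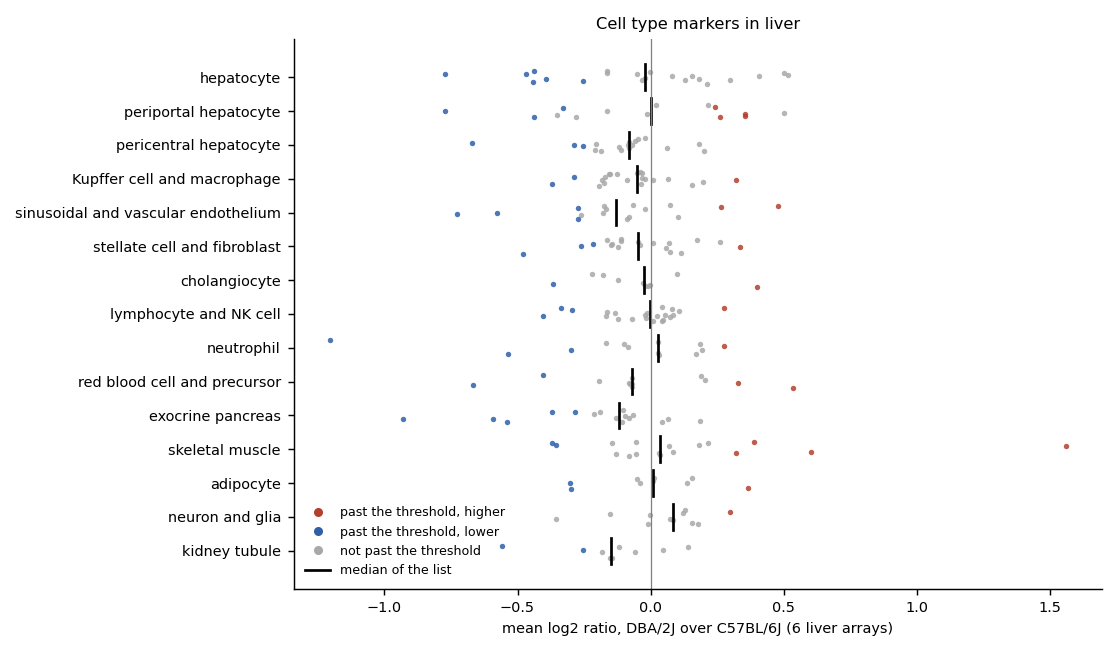
Mean log2 ratio over 6 liver arrays (x axis) for the measured markers of 15 cell types (rows). Red and blue points passed the threshold, grey points did not, and black bars are list medians; the pancreas row has 5 blue and 0 red points and the muscle row 4 red and 2 blue.

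The contrast sets liver against the mean of brain and kidney, so a gene can pass it and still share its direction with one of them. At 1.5-fold 480 features passed it (2.37%), 171 higher and 309 lower. Largest on the higher side were Fgf2 (2.58), Mt1 (1.87), Apcs (1.75), Acta1 (1.65), Msmo1 (1.36), Stk32c (1.32), Asgr2 (1.21) and Nmi (1.19). Asgr2, a subunit of the hepatocyte receptor for asialoglycoproteins, had 0.82 ± 0.31 in liver and -0.72 in kidney, and Nmi, an interferon-induced partner of STAT proteins, 0.72 ± 0.36 and -0.80, so that their tissues pointed in opposite directions. For Mt1 the tissues gave 1.90, 0.31 in brain and -0.24 in kidney (limma, adjusted p of the difference = 6.83e-10).

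On the lower side stood Aox3 (-1.51), Amy2 (-1.50), Fpr2 (-1.36), Bcas3os2 (-1.34), C730007P19Rik (-1.30), Cyp3a13 (-1.27), Pam (-1.26) and Haus4 (-1.26). Fpr2 shared its direction with kidney (-1.54) but not with brain (0.19). Pam, which amidates peptide hormones, was higher in liver (0.60 ± 0.28) but more so in brain (2.26) and kidney (1.47), and its liver spot was dim. Haus4, a spindle gene, also came from a dim spot, and its liver mean of -1.14 depended on the normalisation: it was -0.13 with 1 loess curve per array and 0.03 with the intensity left unrestored. Aox3 and Cyp3a13 were the only liver enzymes of drug oxidation among these 8. The difference of Aox3 had an adjusted p of 2.61e-08 in limma.

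**Figure D5:**
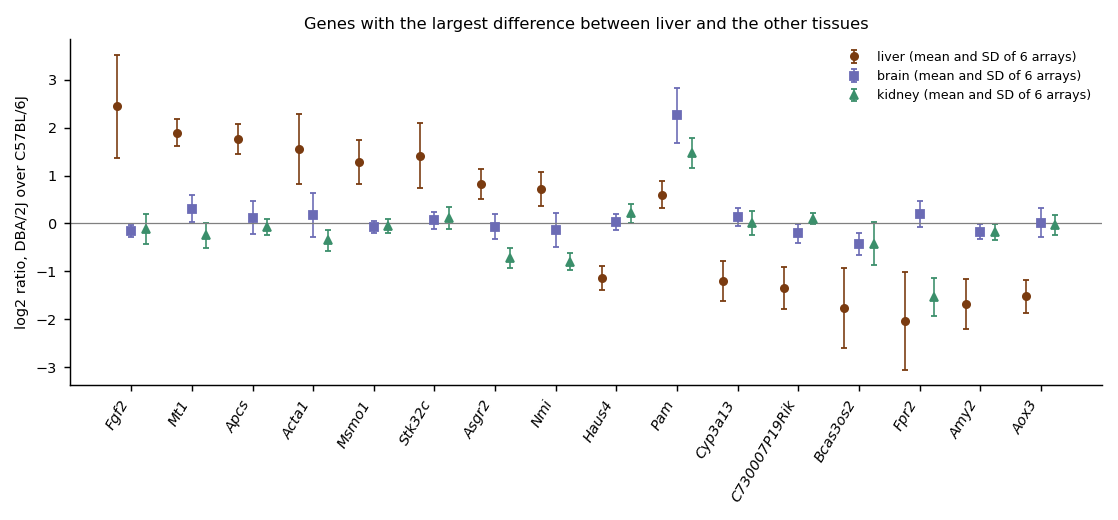
Mean log2 ratio of DBA/2J over C57BL/6J with the SD over 6 arrays in liver (circles), brain (squares) and kidney (triangles) for the 16 genes with the largest differences between liver and the mean of the other tissues. Aox3 sat at -1.52 in liver and near 0 elsewhere, and Mt1 at 1.90 in liver, 0.31 in brain and -0.24 in kidney. Pam was higher in all 3 tissues and least in liver (0.60).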

How the data were processed

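Per the labels, the authors quantified the images with Spot and used print-tip lowess in limma on the log2 ratios before they deposited them. The deposited log2 values of the liver arrays nevertheless had medians from -1.65 to -0.77, and each of the 391770 values (100%) equalled, within 1e-12, the log2 quotient of 2 whole numbers. They were therefore treated as ratios of raw intensities, as the design had set out, although the labels describe normalised values. Of 23040 spots, 1275 were 0 on every array and were left out. The whole numbers were recovered by continued fractions, their common factor was estimated across arrays, and ratios were normalised by print-tip loess (limma 3.58.1 in R 4.3.3, span 0.3, 4 iterations) against the fitted intensity. Symbols came from the platform annotation, updated through a RefSeq table of GRCm38.p6 for 15964 spots. Of the spots used, 16642 had 1 symbol, 134 more than 1 and 4989 no symbol. Spots of a symbol were averaged (1047 genes had more than 1).

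The mean of the 6 liver arrays was tested against 0, and liver against the mean of brain and kidney over 18 arrays, with lmFit and eBayes and Benjamini-Hochberg adjustment over 20218 features at 0.05. Errors are SDs over 6 arrays, whose number limits the precision. On simulated data 85 of 100 features with a 1.5-fold and 95 of 100 with a 2-fold ratio were recovered, and 33 of 20018 unchanged ones were called (0.165%). The simulated noise was independent between spots, few features were changed and no spot had a dye effect of its own. It therefore does not give the share of false calls among the real ones.

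Members and the 44 gene lists (1514 genes, 1249 measured) were chosen with earlier results of these data known. Named genes were the 12 highest and 12 lowest means past the threshold with 1 sign on every array, up to 6 members of each list past it, the 8 largest differences each way from the other tissues, and known strain alleles, 225 in all. Other genes were named after their values were seen. Alternatives tried were no loess, 1 loess curve, unrestored intensity, scale normalisation, the brightest spot per gene, leaving out dim features, an intensity trend, array weights, a replicate block and leaving out each array.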

Additional observations from a re-analysis of the deposited data

Results flagged for a closer look

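In 25 of the 225 named genes 1 liver array lay far from the nearest of the other 5, by Dixon's criterion at 95%, which chance alone meets in about 1 in 20 groups. The array apart was array 2 for 10 genes, arrays 1 and 5 for 5 each, arrays 3 and 6 for 2 each and array 4 for 1. Array 1 gave 0.74 for Atp5e, 1.85 for Dbp, -1.70 for Ero1b, 0.12 for Hp and 1.70 for Mup5. Array 2 gave 0.30 for Abcg1, -0.42 for C9, -0.040 for Cyp2b9, 0.21 for Dusp1, -0.027 for Foxa3, -1.42 for G6pc, 0.42 for Insig2, -0.46 for Klrb1b, 0.012 for Serpini1 and -0.95 for Tmco5. Array 3 gave 0.050 for Bhmt and 0.070 for Insig1. Array 4 gave -1.06 for Avpr1a. Array 5 gave -0.16 for Aldh3a2, -0.73 for Calr, -1.47 for Crot, 1.13 for Cyp2a5 and -0.025 for Psmd1. Array 6 gave -0.79 for Creld2 and -0.53 for Shbg. On array 2 the apart value was nearer 0 than the others, or across it, for 9 of its 10 genes, and G6pc was the exception.

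The ratio of liver differed from the mean of brain and kidney in 127 named genes (limma, adjusted p under 0.05 over 20218 features, 6 arrays per tissue). These are differences of log2 ratios, liver minus the others. The largest on the higher side were 2.58 for Fgf2, 1.87 for Mt1, 1.75 for Apcs, 1.65 for Acta1, 1.36 for Msmo1, 1.32 for Stk32c, 1.21 for Asgr2 and 1.19 for Nmi. Among other high or low extremes the differences were 1.13 for Rny1, 1.08 for Bid, 0.89 for Rian, 0.57 for Actl7a, 0.56 for Tmem256 and 0.54 for Mmp9. The largest on the lower side were -1.51 for Aox3, -1.50 for Amy2, -1.36 for Fpr2, -1.34 for Bcas3os2, -1.30 for C730007P19Rik, -1.27 for Cyp3a13, -1.26 for Pam and -1.26 for Haus4. Other low genes gave -1.21 for Klrb1b and -1.19 for Tmco5. In the endoplasmic reticulum and heat shock lists they were -1.04 for Ero1b, -0.75 for Herpud1, -0.72 for Dnajb9, -0.68 for Hspb1, -0.63 for P4hb, -0.49 for Calr, 0.45 for Bag3 and -0.35 for Dnaja1. Cholesterol genes gave -0.68 for Fdft1, -0.64 for Insig2, 0.61 for Fdps, 0.52 for Sqle and 0.35 for Insig1. For fatty acid synthesis and storage the values were 0.96 for Gpam, -0.80 for Lpin1, 0.61 for Elovl5, 0.57 for Acly, -0.46 for Scd1, -0.36 for Me1 and 0.33 for Fabp4.

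Fatty acid oxidation and bile acid genes gave 0.80 for Nr0b2, -0.79 for Baat, -0.61 for Slco1a4, 0.53 for Fabp2, -0.47 for Acot1, -0.47 for Crot, -0.45 for Aldh3a2, 0.38 for Akr1c6 and -0.33 for Cyp39a1. Glucose genes were all on the lower side, at -0.999 for Pfkl, -0.83 for G6pc, -0.64 for Pygl and -0.64 for Pdha1. Among cytochrome P450 genes the differences were -0.97 for Cyp3a44, -0.78 for Cyp2b9, -0.60 for Cyp4a10 and -0.56 for Cyp1a2. Other enzymes of drug and retinoid metabolism had 1.05 for Fmo2, -0.75 for Gstp1, 0.74 for Gstt2, -0.72 for Ugt2b5, 0.65 for Tpmt, -0.47 for Aldh1a1 and 0.40 for Hsd17b6. Amino acid, one-carbon and glutathione genes had 1.06 for Gadl1, -0.44 for Cdo1, 0.44 for Arg1, -0.36 for Gclm, 0.35 for Aldh1l1, -0.35 for Cps1, -0.34 for Sardh, 0.31 for Ass1 and -0.25 for Oat. Plasma protein genes on the higher side had 1.08 for Hamp, 0.98 for Tfpi2, 0.73 for Apoc2, 0.63 for C9, 0.54 for Orm1 and 0.53 for Serpina6.

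On the lower side plasma protein genes had -0.85 for Hc, -0.78 for Mug1, -0.65 for Serpina12, -0.60 for C8b, -0.55 for Cfb, -0.54 for Serpina3n, -0.53 for Apob, -0.49 for Shbg, -0.35 for Ambp, -0.34 for F12 and -0.34 for Ahsg. Regulators and rhythmic genes had 0.86 for Nudt7, 0.70 for Upp2, 0.53 for Dbp, 0.47 for Noct, -0.47 for Dusp1, 0.41 for Cish, -0.36 for Nr2f2, -0.35 for Hnf4a and -0.33 for Tsc22d3. Ribosomal, respiratory and proteasome genes had -0.60 for Psmd13, 0.57 for Rplp1, -0.45 for Rpl24, 0.44 for Rps15, -0.37 for Psme3, -0.35 for Sdhc and -0.32 for Psmd1. Antigen presentation and interferon genes had -0.79 for H2-Q10, 0.56 for B2m, -0.54 for H2-K1 and 0.47 for Ifi27l2a. Muscle, pancreas and duct markers had -1.12 for Prss2, 0.58 for Ckm, 0.56 for Tnnt3, -0.56 for Ctrl, 0.49 for Tnnc2 and 0.37 for Cldn4. The remaining markers of blood, endothelial, macrophage and tubule cells had -0.78 for Car2, -0.64 for Thbd, -0.59 for Elane, -0.45 for Lyz1, -0.41 for C1qa, -0.41 for Ctsc and -0.34 for Slc22a6. The difference of Mmp9 and of Bid was positive because both were lower in the other tissues than in liver.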

How the results depend on the processing

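The count of liver features past the threshold ran from 2978 (without array 3) to 4610 (without array 2) with 1 array left out, and from 3429 to 5705 under the other settings, against 4672. At 1.5-fold the range with 1 array left out was 467 to 568 and the share of higher features was 33.0%, but 46.3% without loess (313 higher, 363 lower) and 44.3% with unrestored intensity (231 higher, 291 lower). The count of the contrast, 1980, became 5183 without loess (2530 higher, 2653 lower) and 1283 with 1 loess curve per array, and 1514 to 2029 with 1 array left out; the cause was not tested. With the replicate block the contrast gave 1828 features (714 higher, 1114 lower). The replicate numbers of the tissues did not deviate together (12 pairs, r from -0.232 to 0.16, 1 over 0.1), so they were not treated as pairs. Of the 225 named genes, 222 passed the threshold, 168 of them under every setting that held them and 190 with each array left out. The setting that left out dim features held 194 of the 225. Calls were lost by 32 genes without loess, 25 with 1 loess curve, 11 with unrestored intensity and 4 with an intensity trend, and by 4 to 23 with 1 array left out. None was lost under scale normalisation, array weights or the brightest spot. Haus4 reversed, from -1.14 to 0.026, with unrestored intensity; the cause was not tested. Dim spots, spots at the top of the scale and close gene copies limit the values named beside them.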
